A study of Mus musculus with 37 samples.

Results

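Whether the response of D542G mammary cells to estradiol (E2) depends on progesterone (P4) was examined in 12 of the 37 RNA-seq libraries of the series, those of mature luminal cells with the D542G form of Esr1, the gene of estrogen receptor alpha. They fell into 4 groups of 3 libraries: placebo, E2, P4, and E2 with P4 together (E2+P4). All mice had been ovariectomized, carried their hormone pellets for 8 days and were 8 weeks old, and the cells were sorted by FACS from the mammary gland. All 12 libraries carried D542G Esr1, so the placebo group is a D542G group too. WT (13 libraries) and Y541S (12 libraries), the other Esr1 genotypes, entered the comparison between genotypes. They were also in the shared fit of all 37 libraries, which sets the filter on low counts and the spread behind each p-value. The sources used here give neither zygosity nor the number of mice behind a library. The series calls the libraries biological replicates, and p-values measure the spread between replicate libraries over all 37, which may in part be technical.

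Estradiol binds estrogen receptor alpha and progesterone binds the progesterone receptor, the product of Pgr, which is itself a classical estrogen receptor target. In the mammary gland both receptors are found mainly in mature luminal, hormone-sensing cells, which pass the signal on to their neighbours through secreted factors such as amphiregulin, RANKL and Wnt4. D542G and Y541S change residues of the ligand-binding domain of the mouse receptor and correspond to mutations found in breast cancers treated with endocrine therapy, where the receptor can be active without estradiol.

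The quantity followed is the interaction of the 2 hormones on the log2 scale: the change with E2 among P4-treated cells (E2+P4 against P4) minus the change with E2 among cells without P4 (E2 against placebo). An interaction of 0 means that the fold change with E2 was the same with and without P4. A value below 0 means that the log2 change with E2, taken with its sign, was lower when P4 was present. A value above 0 means that it was higher. The sign alone does not tell whether the change became smaller or larger in size. The same number is obtained if the hormones are exchanged. Of 52636 genes in the deposited tables, 18426 passed the filter on low counts and were tested by edgeR's quasi-likelihood test. A gene is said to be called where its p, adjusted by Benjamini-Hochberg over these genes, was under 0.05. Levels are CPM, read counts divided by the library total scaled by its TMM factor.

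The D542G libraries held 33.83 to 50.06 M counts, with at least 1 count in 18938 to 20599 genes. Markers of the labelled cell type were present in all 12: the summed CPM of 18 hormone-sensing luminal genes, among them Esr1, Pgr, Krt8 and Krt18, was 15246 to 17306 in placebo, 20053 to 20856 in E2, 8285 to 10832 in P4 and 7621 to 8827 in E2+P4. The sum of 12 basal and myoepithelial markers was 40.8 to 402 CPM. A pair of libraries stood apart. P4 replicate 2 lay at 127.1 and E2 replicate 3 at 70.9 on the third principal component of log2 CPM, which held 13.4% of the variance, and the other 10 lay between -58.3 and 2.0. E2+P4 replicate 2 lay apart on the fourth component (7.9% of the variance), at -86.3 against -33.2 to 47.1 for the others. It had the highest sum of erythroid markers, 249 CPM against 16.4 to 237 in the others. Within their groups, P4 replicate 2 and E2 replicate 3 had the highest sums of endothelial, leukocyte, adipocyte, erythroid and basal markers. The fibroblast sum was highest in P4 replicate 2 within P4, but in E2 replicate 1 within E2. Larger differences lay in 19 luminal progenitor and alveolar genes. Their sum was 17029 CPM in P4 replicate 2 (5647 and 7628 in the other P4 libraries) and 11769 in E2+P4 replicate 2 (6270 and 6956). In E2 replicate 3 it was 4978 (3269 and 2926). For 24 immediate early genes the sums were 29452 (14360 and 13301), 24408 (12983 and 15228) and 14563 CPM (11578 and 12006) in the same order. The sum of 10 endothelial markers was 81.3 to 95.7 CPM in placebo and 62.3 to 436 CPM in E2, with the highest value in E2 replicate 3. It was 106 to 267 CPM in P4, with the highest value in P4 replicate 2, and 80.3 to 136 CPM in E2+P4. Sums for leukocytes were 10.1 to 11.4 CPM in placebo, 14.0 to 144 in E2, 16.9 to 121 in P4 and 42.6 to 93.5 in E2+P4, with Ms4a1 and Itgam at 0 in all 12 libraries. Sums for fibroblasts were 255 to 922, 263 to 536, 55.8 to 374 and 149 to 470 CPM in the same order. The median interaction was -2.82 over the endothelial, -1.60 over the leukocyte and -2.51 over the fibroblast markers. Without both P4 replicate 2 and E2 replicate 3 the medians were -0.78, 0.31 and 0.11. Of the 10 endothelial, 13 leukocyte and 11 fibroblast markers tested, only the fibroblast gene Mfap5 was called, at -6.75 (adjusted p = 0.0389), with 7 counts in all over the placebo libraries. It was not called without both libraries (-2.61, adjusted p = 0.548), nor without any 1 placebo library, E2 replicate 3, P4 replicate 2, or E2+P4 replicate 1 or 3. At an unadjusted p under 0.05 there were 8 endothelial, 4 leukocyte and 1 fibroblast markers, against 3339 of all 18426 tested genes. DESeq2 called 2, 2 and 1, all below 0, and over all genes 806 below 0 and 626 above. The adipocyte, erythroid and basal lists had medians of -0.68 (7 tested), -0.17 (4 tested) and 0.64 (12 tested), with 0 called by edgeR or DESeq2 and 0, 0 and 1 at an unadjusted p under 0.05. The part of other cells in the results below was not tested. The counts of each comparison without P4 replicate 2 and E2 replicate 3 are given as well. In bulk samples, fewer cells of a type and less RNA per cell cannot be told apart.

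The interaction was called in 716 of 18426 genes (3.89%), in 396 below 0 (2.15%) and in 320 above 0 (1.74%). The median over all tested genes was -0.04. Genes below 0 were mostly higher with E2 in the absence of P4: over the 396 the median log2 change with E2 was 1.54 without P4 and -0.38 with it, and 325 (82.1%) had their highest group mean in E2. Genes above 0 were mostly lower with E2 alone: the median change over the 320 was -1.10 without P4 and 0.43 with it, and 242 (75.6%) had their lowest group mean in E2. Their highest group mean was in E2+P4 for 151 and in placebo for 150. The sign of the change with E2 differed between the 2 settings in 263 genes below (66.4%) and 232 above (72.5%). It was the same but smaller with P4 in 121 and 71, and larger with P4 in 12 and 17. These medians describe genes that were picked by the interaction itself and are no further evidence for it.

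Fewer genes passed the test for E2 when P4 was present. E2 alone changed 2893 genes (15.7% of those tested), 1541 higher and 1352 lower, and E2 on top of P4 changed 953 (5.17%), 551 higher and 402 lower. Among the 396 genes with an interaction below 0, E2 was called only without P4 in 293, only with P4 in 56, in both settings in 24 and in neither in 23. Among the 320 above 0 the corresponding counts were 201, 68, 24 and 27. These comparisons use libraries of the same 12 and are given side by side. Without both P4 replicate 2 and E2 replicate 3, E2 alone changed 1313 genes higher and 1033 lower, and E2 on top of P4 254 and 249. The count for E2 alone was 936 higher without placebo replicate 1, and 923 higher and 894 lower without placebo replicate 2. The count for E2 on top of P4 was 238 higher and 245 lower without P4 replicate 2, 359 and 255 without P4 replicate 3, 263 and 196 without E2+P4 replicate 1, and 358 and 208 without E2+P4 replicate 3, with 235 lower without E2+P4 replicate 2. With library size as the only scaling, the share of higher calls went from 53.3% to 41.8% for E2 alone and from 57.8% to 37.1% for E2 on top of P4 (47.5% with DESeq2). The median over all genes was then -0.14 against -0.03 for E2 on top of P4. P4 alone changed 3385 genes (18.4%), 51.6% of them higher and 80.0% with library size only (median 0.06 against 0.34), and P4 on top of E2 changed 3844 (20.9%), 48.2% of them higher and 71.6% with library size only (median 0.01 against 0.27). Without both P4 replicate 2 and E2 replicate 3, P4 alone changed 970 genes higher and 836 lower, and P4 on top of E2 1530 and 1895. The interaction, a difference of differences, split 347 above to 440 below with library size only.

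Of the 716 calls, 314 were made in every one of the 12 fits that left out 1 D542G library, and the sign of all 716 was the same in each of these fits. The count was 208 above without placebo replicate 2 and 211 without placebo replicate 1. It was 231 below without placebo replicate 2, 245 without placebo replicate 1 and 251 without E2+P4 replicate 3. When P4 replicate 2 and E2 replicate 3 were both left out, 204 genes were called above 0 and 284 below; 390 of the 716 calls were kept, and 715 genes kept their sign. Without E2+P4 replicate 2 the counts were 253 above and 295 below. With only the 12 D542G libraries in the fit, more genes were called above 0 than below, 356 against 315, and 265 against 237 with a replicate block as well. Of the 716 calls, 462 were kept with only these 12 libraries, and 375 with the block as well. With all libraries but no filter on low counts, 519 were kept. All 716 genes kept their sign in these 3 fits.

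**Figure D1:**
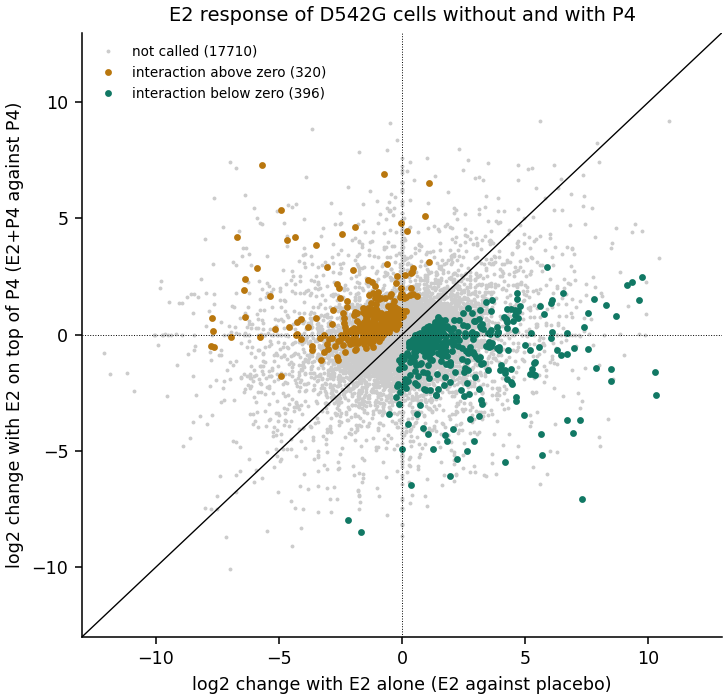
Log2 change with E2 without P4 (E2 against placebo, horizontal) and with P4 (E2+P4 against P4, vertical) for the 18426 tested genes of D542G cells; the solid line marks equal change. The 396 genes with a called interaction below 0 (green) lie under the line, mostly to the right, and the 320 above 0 (orange) lie over it, mostly to the left.

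Most of the genes described here with a large interaction below 0 rose with E2 alone and had no called rise with E2 on top of P4. Klk8, a secreted serine protease of the kallikrein family (ENSMUSG00000064023, chr7:43797577-43803826, plus strand, GRCm38), had the smallest p. Its level was 2.73, 5.15 and 3.69 CPM in the placebo libraries, 123, 127 and 174 in E2, 8.86, 7.93 and 8.95 in P4, and 2.59, 2.40 and 2.89 in E2+P4. All 3 E2 libraries stood far above the other 9, and the E2+P4 libraries lay below the P4 libraries without overlap. E2 raised Klk8 without P4 (log2 change 5.19 ± 0.51, SE) and lowered it on top of P4 (-1.71 ± 0.45), an interaction of -6.90 ± 0.67 (adjusted p = 9.43e-07). Klk8 belongs to a multigene family, and how reads shared with its relatives were counted is not given in the sources used here.

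Cxcl5, a chemokine that attracts neutrophils (chr5:90759360-90761624, plus strand), was at 0.795, 1.32 and 2.64 CPM in placebo and at 584, 736 and 626 in E2. It was at 4.18, 0.383 and 2.30 CPM in P4 and at 5.63, 1.24 and 4.998 in E2+P4. The P4 and E2+P4 libraries overlapped, and E2 on top of P4 was not called for Cxcl5 (0.79 ± 0.85, adjusted p = 0.661). Its interaction was -7.88 ± 1.30 (adjusted p = 0.000495).

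Il33, an alarmin cytokine stored in the nuclei of epithelial cells (chr19:29925114-29960718, plus strand), read 25.5, 58.5 and 74.7 CPM in placebo and 968, 1197 and 888 in E2. With P4 it read 20.2, 7.21 and 11.7 CPM, and with both hormones 3.04, 1.76 and 5.76. Every E2+P4 library was thus below every library of the other 3 groups. The interaction of Il33 was -6.16 ± 0.98 (adjusted p = 0.000279). P4 lowered Il33 both alone (-2.02 ± 0.66, adjusted p = 0.0313) and on top of E2 (-8.18 ± 0.87).

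Htra3, a secreted serine protease (chr5:35652023-35679782, minus strand), rose from 3.91, 6.67 and 4.46 CPM in placebo to 243, 226 and 241 in E2. It was at 2.34, 14.2 and 2.04 CPM in P4, with the high value in P4 replicate 2, and at 4.36, 5.93 and 2.57 in E2+P4. Groups other than E2 overlapped, and the interaction was -6.09 ± 0.94 (adjusted p = 0.000228). Olfml3, a secreted olfactomedin-like glycoprotein (chr3:103722222-103738001, minus strand), went from 0.273, 1.20 and 0.213 CPM in placebo to 91.6, 79.8 and 144 in E2. In P4 Olfml3 was at 2.64, 2.07 and 1.67 CPM, and in E2+P4 at 4.98, 2.32 and 4.92. Its interaction was -6.60 ± 0.80 (adjusted p = 1.68e-05), and P4 alone raised it by 1.91 ± 0.56. Krt4, a keratin of stratified and simple internal epithelia (chr15:101918535-101924735, minus strand), was at 24.1, 34.1 and 17.9 CPM in placebo, 549, 364 and 324 in E2, 17.6, 5.90 and 9.33 in P4 and 6.86, 2.94 and 3.36 in E2+P4. E2 libraries were the highest for all 3 genes. The interaction of Krt4 was -5.34 ± 0.84 (adjusted p = 0.000263).

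Penk, which encodes the precursor of enkephalins (chr4:4133531-4138819, minus strand), and Slpi, a secreted inhibitor of leukocyte proteases (chr2:164354070-164389095, minus strand), were raised by P4 alone as well, by 7.65 ± 1.15 and 4.71 ± 0.84. Penk read 6.72, 1.32 and 1.51 CPM in placebo, 1009, 1532 and 849 in E2, 1770.4, 81.3 and 60.7 in P4, and 432, 78.1 and 172 in E2+P4. One P4 library, replicate 1, was above all E2 libraries, while the other 2 were near the lowest E2+P4 library. The interaction of Penk was -9.96 ± 1.44 (adjusted p = 0.000124). Slpi read 4.23, 3.00 and 3.18 CPM in placebo, 2115, 3783 and 3070.4 in E2, 249.6, 16.0 and 6.91 in P4, and 744, 340.3 and 428 in E2+P4. Its interaction of -7.28 ± 1.13 (adjusted p = 0.000238) was -4.28 without P4 replicate 1, the library with the highest Slpi level of its group; that of Penk had its smallest size over the fits without a library, -6.79, in the same fit.

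Atp2a3, a calcium pump of the endoplasmic reticulum, showed a crossed pattern. It was at 10.8, 14.8 and 21.5 CPM in placebo, 257, 236 and 346 in E2, 139, 23.2 and 91.7 in P4, and 40.1, 9.86 and 31.7 in E2+P4. The E2 libraries were the highest, and the P4 and E2+P4 libraries overlapped. Each hormone alone raised Atp2a3 (4.16 ± 0.55 for E2, 2.43 ± 0.51 for P4), and each lowered it on top of the other (-1.64 ± 0.49 for E2, -3.36 ± 0.53 for P4). The interaction was -5.79 ± 0.73 (adjusted p = 2.14e-05). Cel, a bile-salt-dependent lipase also secreted into milk, was raised by E2 alone and by P4 alone (4.71 ± 0.67), from a placebo mean of 0.877 CPM to means of 28.1 and 23.1 CPM, and was at 17.0 CPM with both. Its interaction was -5.44 ± 0.86 (adjusted p = 0.000263). The interactions of Klk8, Cxcl5, Il33, Htra3, Olfml3, Krt4, Penk, Slpi, Atp2a3 and Cel were called in all 12 fits without 1 library.

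Ctsr and Ctsj, cathepsins of a rodent placental cathepsin cluster, had large interactions of another shape. Ctsr had means of 291 CPM in placebo, 1123 in E2, 85.3 in P4 and 1.25 in E2+P4, and an interaction of -8.04 ± 1.62 (adjusted p = 0.00342). Ctsj was at 177, 258 and 219 CPM in placebo, 67.7, 77.4 and 59.8 in E2, 8.21, 25.8 and 42.6 in P4, and at 9 counts in all over the 3 E2+P4 libraries, lowest in each of them. It was called at -6.83 ± 1.73 (adjusted p = 0.0219) and not without placebo replicate 1 or 2 or any 1 of the E2+P4 libraries, where the adjusted p was 0.0505 to 0.063. Members of this cluster are similar in sequence, so the division of reads between them is uncertain. In WT placebo cells, the mean was 0.323 CPM for Ctsr and 0.0732 CPM for Ctsj, so these genes were nearly absent there.

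**Figure D2:**
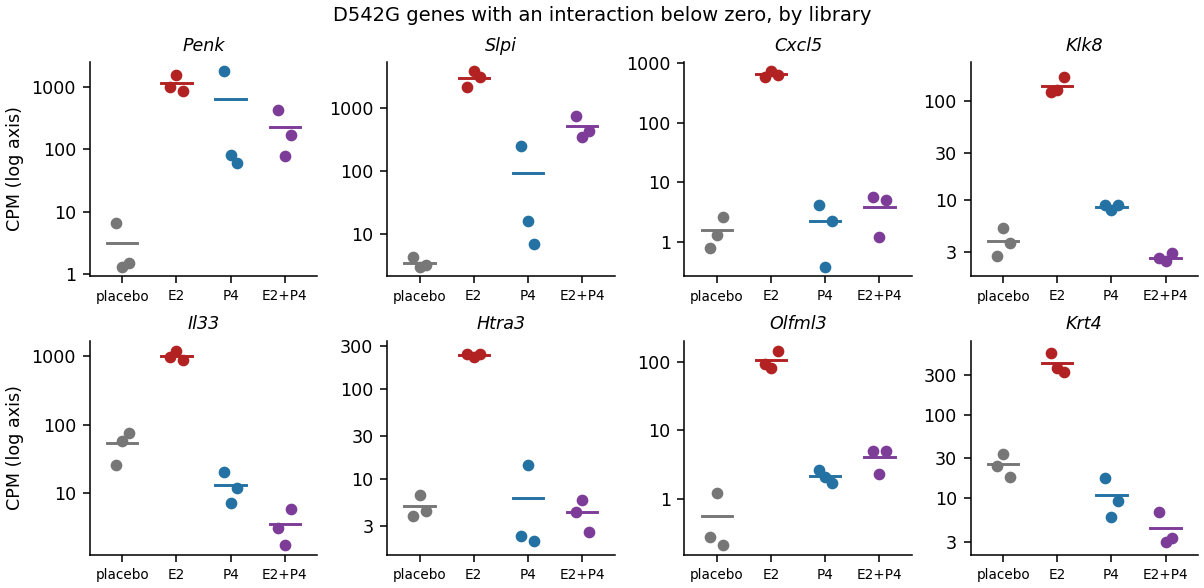
CPM on a log axis in the 12 D542G libraries for 8 genes with an interaction below 0; each point is 1 library and each line the mean of 3. The E2 libraries stand above the placebo and E2+P4 libraries in all 8 panels, and for Penk 1 P4 library, at 1770.4 CPM, stands above them.

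Genes with an interaction above 0 took several patterns. Some were highest when both hormones were given, and some fell with E2 alone and not with E2 on top of P4. Net1, a guanine nucleotide exchange factor for RhoA (ENSMUSG00000021215, chr13:3882018-3918220, minus strand), was at 83.0, 75.6 and 86.3 CPM in placebo, 32.2, 42.9 and 39.4 in E2, 70.4, 37.8 and 58.1 in P4, and 196, 218 and 299 in E2+P4. The E2+P4 libraries were above all others, and the E2 libraries below all placebo libraries. E2 lowered Net1 without P4 (-1.10 ± 0.23) and raised it on top of P4 (2.10 ± 0.24), an interaction of 3.20 ± 0.33 (adjusted p = 1.34e-06).

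Smarcd3, a subunit of the SWI/SNF chromatin remodelling complex (chr5:24590818-24624411, minus strand), was at 5.66, 3.02 and 2.67 CPM in placebo, 1.13, 0.518 and 0.115 in E2, 9.81, 5.001 and 8.65 in P4 and 22.6, 50.7 and 34.7 in E2+P4. The ranges of the E2 and the E2+P4 libraries were at opposite ends, without overlap with another group. Its interaction was 4.86 ± 0.68 (adjusted p = 8.95e-05). Eef2k, the kinase of translation elongation factor eEF2 (chr7:120842831-120907450, plus strand), had the same order: 46.0, 57.3 and 53.4 CPM in placebo, 18.0, 16.4 and 30.1 in E2, 88.6, 75.2 and 72.5 in P4, and 145, 135 and 207 in E2+P4. The 4 groups did not overlap for Eef2k, and the interaction was 2.32 ± 0.31 (adjusted p = 3.84e-05).

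Nmb, the neuropeptide neuromedin B (chr7:80902227-80905076, minus strand), was far higher with both hormones than in any other group. It was at 1.39, 1.63 and 1.94 CPM in placebo, 1.80, 2.73 and 1.12 in E2, 4.43, 3.47 and 3.79 in P4, and 39.6, 141 and 79.8 in E2+P4. For Nmb, E2 alone was not called (0.18 ± 0.40, adjusted p = 0.807), P4 alone raised it by 1.23 ± 0.40, and E2 on top of P4 raised it by 4.48 ± 0.44. The interaction was 4.30 ± 0.57 (adjusted p = 4.26e-05).

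Per1 and Lpin1 fell with E2 alone. Per1, a circadian clock gene that steroid receptors also induce (chr11:69095217-69109960, plus strand), was at 33.7, 34.6 and 25.2 CPM in placebo, 9.78, 6.52 and 13.8 in E2, 20.3, 20.5 and 26.3 in P4, and 29.1, 21.1 and 28.6 in E2+P4. Only the E2 libraries stood apart. E2 lowered Per1 without P4 (-1.63 ± 0.21), and with P4 the change was 0.23 ± 0.21 (adjusted p = 0.581); the interaction was 1.87 ± 0.29 (adjusted p = 0.000265). Lpin1, a phosphatidate phosphatase of lipid synthesis (chr12:16535669-16610966, minus strand), was at 38.3, 48.2 and 34.5 CPM in placebo, 12.9, 12.3 and 14.6 in E2, 32.3, 30.0 and 45.7 in P4, and 81.6, 78.8 and 52.6 in E2+P4. Its interaction was 2.58 ± 0.39 (adjusted p = 0.000179). Net1, Smarcd3, Eef2k, Nmb, Per1 and Lpin1 were called in all 12 fits without 1 library.

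The other genes with the largest interactions above 0 were less secure. Ppp1r1b, a phosphatase inhibitor also known as DARPP-32, had means of 8.42, 1.58, 20.9 and 40.6 CPM in placebo, E2, P4 and E2+P4 and an interaction of 3.37 ± 0.53 (adjusted p = 0.000285), but other genes cover 75.4% of its span, and reads of overlapping genes cannot be told apart without strand. Ltbp2, an extracellular matrix protein, was at 23.7, 26.2 and 22.2 CPM in placebo and 6.82, 2.86 and 0.115 in E2. Its interaction of 3.32 ± 0.71 (adjusted p = 0.00611) had an adjusted p of 0.107 when only the 12 D542G libraries entered the fit. Glb1l2, a member of the beta-galactosidase family, was called in all fits without a library at 4.79 ± 1.10 (adjusted p = 0.0109), but not with only the 12 D542G libraries and a replicate block (adjusted p = 0.0584). Adra1a (4.18), Dcdc2a (4.17), Slc16a12 (4.09), Kcnip3 (3.43), Extl1 (3.19) and Susd4 (3.18) had adjusted p of 0.0218 to 0.0426, and were called in 9, 7, 4, 3, 5 and 2 of the 12 fits. Adra1a, the alpha-1A adrenergic receptor, lost its call without placebo replicate 1, E2 replicate 1 or P4 replicate 3. Dcdc2a lost it without placebo replicate 2, E2 replicate 2 or 3, or P4 replicate 2 or 3. The call was kept only without placebo replicate 3, E2 replicate 1, P4 replicate 1 or E2+P4 replicate 1 for Slc16a12, only without E2 replicate 3, P4 replicate 1 or E2+P4 replicate 2 for Kcnip3, only without placebo replicate 3, E2 replicate 1 or 3, P4 replicate 2 or E2+P4 replicate 1 for Extl1, and only without E2 replicate 1 or P4 replicate 2 for Susd4. Without both P4 replicate 2 and E2 replicate 3, Adra1a, Dcdc2a, Slc16a12, Kcnip3 and Susd4 were not called (adjusted p of 0.0538 to 0.155). With only the 12 D542G libraries, Slc16a12 and Extl1 were not called (adjusted p of 0.0815 and 0.103), nor was Adra1a with a replicate block as well (0.0615). With no filter on low counts, Slc16a12, Kcnip3, Extl1 and Susd4 were not called (adjusted p of 0.0548 to 0.0684), and Susd4 was not called with library size as the only scaling (0.0531).

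**Figure D3:**
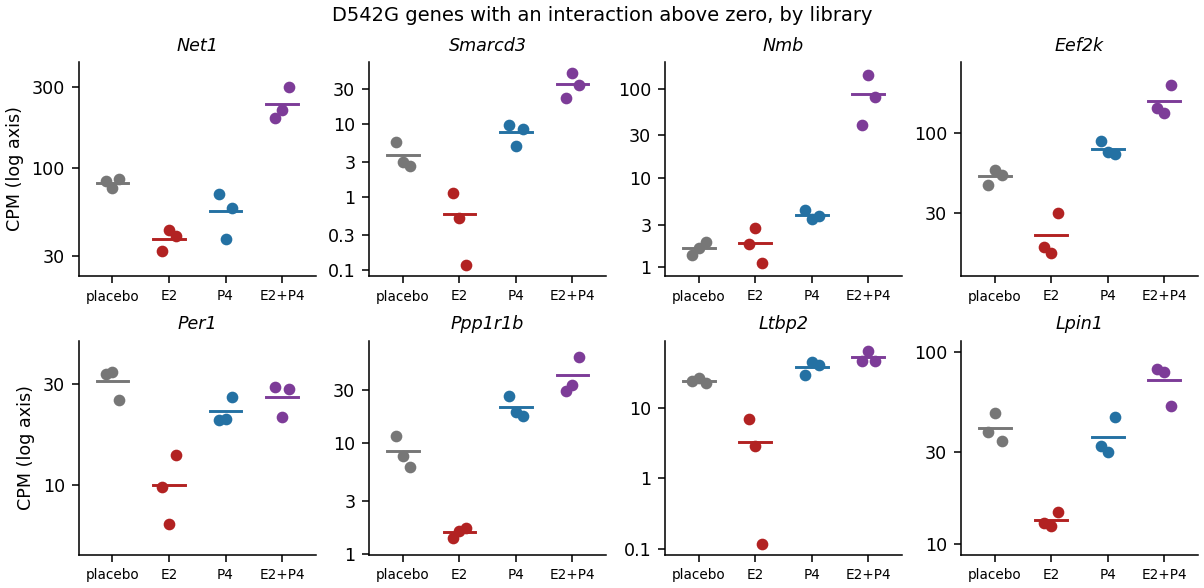
CPM on a log axis in the 12 D542G libraries for 8 genes with an interaction above 0; each point is 1 library and each line the mean of 3. The E2+P4 libraries are the highest for Net1, Smarcd3, Nmb, Eef2k, Ppp1r1b, Ltbp2 and Lpin1, while for Per1 the E2 libraries, at 6.52 to 13.8 CPM, are the only ones apart.

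For the receptors themselves no interaction was called in D542G cells. Esr1 was at 167, 199 and 147 CPM in placebo, 89.6, 101 and 72.1 in E2, 130.5, 78.6 and 107 in P4, and 104, 82.5 and 66.8 in E2+P4. The placebo libraries were the highest and the other 3 groups overlapped; E2 alone lowered Esr1 (-0.97 ± 0.33, adjusted p = 0.0478). Its interaction was 0.65 ± 0.47 (adjusted p = 0.504). Pgr was at 217, 269.7 and 293 CPM in placebo, 529.6, 427 and 392 in E2, 109, 48.8 and 109.9 in P4, and 186, 127 and 112 in E2+P4. P4 lowered Pgr by a like amount without E2 (-1.54 ± 0.37) and with it (-1.67 ± 0.37), and the interaction was -0.13 ± 0.51 (adjusted p = 0.951). Prlr, the prolactin receptor, gave 0.36 ± 0.47 (adjusted p = 0.760), and Cited1, a coregulator of the estrogen receptor in these cells, -0.14 ± 0.66 (adjusted p = 0.963).

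Several well-known hormone targets had no called interaction. Greb1, a coregulator and classical estrogen receptor target, was at 0.659, 0.613 and 1.30 CPM in placebo, 8.05, 6.35 and 6.79 in E2, 7.57, 2.55 and 2.86 in P4, and 81.3, 69.6 and 50.9 in E2+P4. Each hormone raised Greb1 alone (3.03 ± 0.55 for E2, 2.32 ± 0.54 for P4) and on top of the other (3.96 ± 0.55 and 3.25 ± 0.53), so the high level with both came with an interaction of 0.93 ± 0.73 (adjusted p = 0.545). Tnfsf11, the gene of RANKL, had 18 counts over the 3 placebo libraries and 11 over the E2 libraries, and was at 1162, 783 and 776 CPM in P4 and 460.1, 318 and 501 in E2+P4. The P4 libraries were all above the E2+P4 libraries, but E2 on top of P4 was not called (-1.09 ± 0.95, adjusted p = 0.576), and the interaction of -0.74 ± 2.58 has a wide error, with Tnfsf11 near 0 without P4. Areg, the gene of amphiregulin, was at 49.8, 183 and 174 CPM in placebo, 383, 443 and 238 in E2, 484, 322 and 461 in P4, and 472, 320.04 and 269 in E2+P4. The 3 hormone groups overlapped for Areg, and the interaction was -1.64 ± 0.66 (adjusted p = 0.168).

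Of 24 tested members of a list of estrogen receptor targets, the interaction was called below 0 in 3 (Ccn5, Cxcl12, Krt19) and above 0 in 2 (Ctsd, Stc2), against 2.15% and 1.74% of all tested genes, and the median was -0.39. An unadjusted p under 0.05 was found for 10 of the 24, against 3339 of all 18426 tested genes. The median was -0.03 without both P4 replicate 2 and E2 replicate 3, with 2 called below and 1 above. The count above was also 1 without placebo replicate 2, E2 replicate 3, P4 replicate 2 or P4 replicate 3. Krt19, a luminal keratin, was at 7998, 9675 and 9903 CPM in placebo, 17934, 18999 and 16990.4 in E2, 6756, 5213 and 7287 in P4, and 4828, 3957 and 5026 in E2+P4. All E2 libraries were above all others, and the interaction was -1.45 ± 0.26 (adjusted p = 0.00125). Cxcl12, a chemokine, was at 5.11, 4.88 and 9.32 CPM in placebo, 92.7, 75.9 and 71.6 in E2, 9.08, 16.2 and 7.04 in P4, and 5.72, 11.8 and 7.74 in E2+P4, an interaction of -3.99 ± 0.71 (adjusted p = 0.000939). Stc2, a secreted glycoprotein hormone, went the other way. It was at 231, 332 and 296 CPM in placebo, 506, 681 and 629.8 in E2, 62.7, 25.8 and 49.5 in P4, and 508, 419 and 268 in E2+P4. P4 alone lowered Stc2 (-2.64 ± 0.30) and E2 raised it more on top of P4 (3.12 ± 0.31) than without it (1.08 ± 0.29), an interaction of 2.03 ± 0.40 (adjusted p = 0.00296). Krt19, Cxcl12 and Stc2 were called in all 12 fits without 1 library, but Stc2 was not with only the 12 D542G libraries and a replicate block (adjusted p = 0.0584). Ccn5, a matricellular growth regulator named here after its values were seen, was at -2.98 ± 0.76 (adjusted p = 0.0219) and was not called without placebo replicate 1, P4 replicate 2 or E2+P4 replicate 3 (adjusted p of 0.0631, 0.115 and 0.0685), without both P4 replicate 2 and E2 replicate 3 (0.129), or with only the 12 D542G libraries (0.0549, and 0.0516 with a replicate block). Ctsd, a lysosomal protease with 55.7% of its span covered by other genes, was at 1.24 ± 0.31 (adjusted p = 0.0218), and its call was lost without placebo replicate 2, E2 replicate 3, P4 replicate 2 or P4 replicate 3 (adjusted p of 0.0503 to 0.0641), or without both P4 replicate 2 and E2 replicate 3 (0.113).

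Of 27 tested targets of the progesterone receptor and related steroid receptors, 3 were called above 0 (Per1, Sgk1, Wnt4) and 2 below (Bcl6, Calca), against 1.74% and 2.15% of all tested genes, with a median of 0.82. Of the 27, 15 had an unadjusted p under 0.05, against 3339 of all 18426 tested genes. Only 1 was called above without placebo replicate 3, P4 replicate 3 or E2+P4 replicate 1, and 6 with DESeq2 (626 over all genes). Bcl6, a transcriptional repressor, was at 20.1, 15.5 and 23.2 CPM in placebo, 29.2, 57.9 and 37.2 in E2, 20.1, 12.8 and 16.9 in P4, and 9.63, 7.44 and 8.92 in E2+P4. E2 raised Bcl6 without P4 (1.08 ± 0.22) and lowered it with P4 (-0.94 ± 0.22), an interaction of -2.02 ± 0.31 (adjusted p = 0.000181), called in all 12 fits without a library. Calca, the gene of calcitonin and CGRP, was at 10.9, 12.6 and 10.2 CPM in placebo and 17.0, 6.97 and 16.0 in E2. It was at 8367, 5098 and 3647 CPM in P4 and at 286, 307 and 607 in E2+P4, so that every P4 library was above every E2+P4 library. The interaction of Calca was -4.09 ± 1.17 (adjusted p = 0.0434); it was called in 2 of the 12 fits, those without E2 replicate 2 or P4 replicate 3, and the adjusted p was 0.0572 to 0.106 without each of the other 10 libraries. It was 0.102 without both P4 replicate 2 and E2 replicate 3 and 0.0856 with no filter on low counts. Wnt4, a paracrine signal to basal cells, fell with E2 alone, from 252, 193 and 304 CPM in placebo to 23.7, 26.1 and 8.66 in E2. It was at 532, 220.4 and 297 CPM in P4 and at 249.7, 301 and 109 in E2+P4, where the groups overlapped. Its interaction was 3.01 ± 0.78 (adjusted p = 0.0259), with the call lost (adjusted p of 0.0501 to 0.0792) without placebo replicate 1 or 3, E2 replicate 3, P4 replicate 2 or 3, or E2+P4 replicate 1 or 2, and without both P4 replicate 2 and E2 replicate 3 (0.149). Of 23 paracrine factors, Wnt4 was called above (1.74% of all tested genes) and Calca, Cxcl12 and Penk below 0 (2.15%), with a median of -0.40, or -0.13 without E2 replicate 3. DESeq2 called 5 below (806 over all genes). Of these 23 factors, 10 had an unadjusted p under 0.05, against 3339 of all 18426 tested genes.

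Sgk1, a kinase that steroid hormones induce in many tissues, was at 1184, 2131 and 1542 CPM in placebo, 1064, 1019 and 1123 in E2, 1388, 718 and 784 in P4, and 1878, 1069 and 1747 in E2+P4. The E2 libraries lay below the placebo libraries and within the range of P4, and its interaction of 1.30 ± 0.36 (adjusted p = 0.0401) was called in 3 of 12 fits, those without placebo replicate 1, P4 replicate 1 or E2+P4 replicate 2, with adjusted p up to 0.137 otherwise. The call of Sgk1 was also lost with a replicate block (adjusted p = 0.0529), with only the 12 D542G libraries (0.103, and 0.138 with the block) and without both P4 replicate 2 and E2 replicate 3 (0.144). Estrogen and progesterone receptors bind known DNA motifs, and these were searched in the promoters of the tested genes. RefSeq windows of GRCm38.p6, from 250 bases before to 50 after a gene's start, were available for 12672 tested genes. The palindromic progesterone and glucocorticoid receptor motif, searched on both strands as GNACANNNTGTNC, was in a window of 57 of these genes (0.45%), of 3 of the 241 genes above 0 with a window (1.24%) and of 0 of the 294 below. The estrogen receptor motif GGTCANNNTGACC was in 4 genes (0.03%) and in 0 of the 241 and 0 of the 294. The 3 windows with a match among the called genes are printed because they are the ones, among genes with a called interaction, that hold either motif; the motif is in capitals, and each sequence runs 5′ to 3′ along the gene's strand. They are Sgk1 at chr10:21993640-21993939 (plus strand, at one of the annotated starts of the gene), Car14 at chr3:95904636-95904935 (minus strand) and Suox at chr10:128673869-128674168 (minus strand). A match is a description of letters, not a binding site or a cause.
Sgk1: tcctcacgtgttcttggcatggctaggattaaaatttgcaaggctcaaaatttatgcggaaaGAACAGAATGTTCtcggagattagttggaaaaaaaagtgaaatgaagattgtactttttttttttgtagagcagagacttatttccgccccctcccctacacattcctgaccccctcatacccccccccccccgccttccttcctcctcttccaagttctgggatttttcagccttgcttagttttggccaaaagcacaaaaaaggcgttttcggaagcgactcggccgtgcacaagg
Car14: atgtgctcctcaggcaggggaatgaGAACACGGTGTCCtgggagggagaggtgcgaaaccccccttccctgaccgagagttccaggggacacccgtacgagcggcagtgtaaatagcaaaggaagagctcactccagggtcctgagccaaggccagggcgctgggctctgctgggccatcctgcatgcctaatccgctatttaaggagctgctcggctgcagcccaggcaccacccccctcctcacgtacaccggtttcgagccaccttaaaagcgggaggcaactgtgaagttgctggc
Suox: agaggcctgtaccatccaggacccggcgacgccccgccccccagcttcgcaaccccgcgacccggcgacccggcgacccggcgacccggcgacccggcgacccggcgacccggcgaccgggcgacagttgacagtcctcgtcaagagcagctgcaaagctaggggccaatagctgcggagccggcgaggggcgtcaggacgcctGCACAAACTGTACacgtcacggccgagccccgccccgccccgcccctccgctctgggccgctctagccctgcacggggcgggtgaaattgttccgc

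Car14 and Suox, named for this match after values were seen, were at their highest with both hormones. Car14, a membrane carbonic anhydrase, was at 0.75, 0.795 and 1.17 CPM in placebo, 0.408, 1.04 and 0.317 in E2, 1.57, 0.766 and 0.694 in P4, and 8.71, 8.08 and 7.99 in E2+P4. Its interaction was 3.66 ± 0.88 (adjusted p = 0.0144), and not called without both P4 replicate 2 and E2 replicate 3 (adjusted p = 0.0872). Suox, the sulfite oxidase of mitochondria, was at 59.5, 60.8 and 54.3 CPM in placebo, 78.4, 70.5 and 46.5 in E2, 194, 91.5 and 128 in P4, and 491, 365 and 433 in E2+P4. The E2+P4 libraries were above all others in both genes. Suox had an interaction of 1.48 ± 0.36 (adjusted p = 0.0162), not called without E2 replicate 3 (adjusted p = 0.0572), P4 replicate 2 (adjusted p = 0.0521) or both (adjusted p = 0.128).

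Of the 21 gene lists, glycolysis and sugar transport held the most called interactions. Of 19 genes of glycolysis, sugar uptake and lactate export, 8 had a called interaction below 0 and 0 above, against 2.15% and 1.74% of all tested genes, and the median was -0.87 against -0.04. At an unadjusted p under 0.05 there were 13 (3339 of all 18426 genes), and DESeq2 called 8, all below 0 (806 over all genes). E2 alone raised 12 of the 19 and lowered 1, Aldoc (8.36% and 7.34% of all genes were called higher and lower), with a median of 1.01. E2 on top of P4 raised 2 (2.99% of all genes) and lowered 1 (2.18%), with a median of 0.01. P4 on top of E2 lowered 16 (10.8% of all genes) and raised 1, with a median of -1.31. The summed level of the 19 genes was 3158 to 4362 CPM in placebo, 6739 to 7940.0 in E2, 2361 to 2905 in P4 and 2575 to 3476 in E2+P4, so that the E2 libraries lay above all others.

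Eno1, the enolase of glycolysis (ENSMUSG00000063524, chr4:150236721-150248879, plus strand), was at 131, 140.3 and 172 CPM in placebo, 395, 366 and 306 in E2, 111, 125 and 127 in P4, and 139, 125 and 138 in E2+P4. Its interaction was -1.12 ± 0.18 (adjusted p = 0.000454). Tpi1, triose-phosphate isomerase, was at 422, 479 and 601 CPM in placebo, 1129, 1111 and 919 in E2, 382, 315 and 387 in P4, and 385, 298 and 380.1 in E2+P4, an interaction of -1.10 ± 0.26 (adjusted p = 0.0142) that was not called without placebo replicate 1 (adjusted p = 0.0556). For both genes the E2 libraries were above all others. Gapdh was at -1.30 ± 0.26 (adjusted p = 0.00296), with the reservation that it has many pseudogene copies. Pfkp, a phosphofructokinase, was at -1.27 ± 0.29 (adjusted p = 0.00949). It was the one member that E2 lowered on top of P4, from 44.8, 68.1 and 48.9 CPM in P4 to 32.4, 34.2 and 33.6 in E2+P4.

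The other 4 calls were named after their values were seen. The lactate transporters Slc16a1 and Slc16a3 rose with E2 alone, by 2.68 ± 0.32 and 4.65 ± 0.58, and rose by less on top of P4, by 1.14 ± 0.30 and 1.81 ± 0.51. Slc16a3 was at 3.25, 3.34 and 7.85 CPM in placebo, 107, 155 and 101 in E2, 9.38, 2.73 and 5.14 in P4, and 26.6, 23.7 and 10.2 in E2+P4. Their interactions were -1.54 ± 0.43 (adjusted p = 0.0389) and -2.84 ± 0.72 (adjusted p = 0.0218). Ldha, lactate dehydrogenase A, was at -0.87 ± 0.25 (adjusted p = 0.0446) and Gpi1, glucose-6-phosphate isomerase, at -0.90 ± 0.25 (adjusted p = 0.0343). Slc16a1 was called only without placebo replicate 2, P4 replicate 3 or E2+P4 replicate 1. Slc16a3 was not called without placebo replicate 1 or 2, E2 replicate 2, P4 replicate 1 or E2+P4 replicate 3. Ldha was called only without placebo replicate 3 or P4 replicate 2, and Gpi1 only without placebo replicate 3, E2 replicate 3 or P4 replicate 2. With only the 12 D542G libraries, Slc16a3 was not called (adjusted p = 0.0558, and higher with a replicate block), and with that block Slc16a1, Ldha and Gpi1 were not called either (adjusted p of 0.0641 to 0.0843). These 3 were also lost with no filter on low counts (adjusted p of 0.051 to 0.0673), and Slc16a1 and Ldha without both P4 replicate 2 and E2 replicate 3 (0.117 and 0.0535). The count of called members was 3 without placebo replicate 1, 4 without E2 replicate 2, P4 replicate 1 or E2+P4 replicate 3, and 5 without placebo replicate 2, E2 replicate 1 or E2+P4 replicate 2. It was 5 with no filter on low counts and 4 with only the 12 D542G libraries and a replicate block. It was 7 without both P4 replicate 2 and E2 replicate 3, with a median of -1.01. The median was -0.76 or lower in each fit without 1 library.

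**Figure D4:**
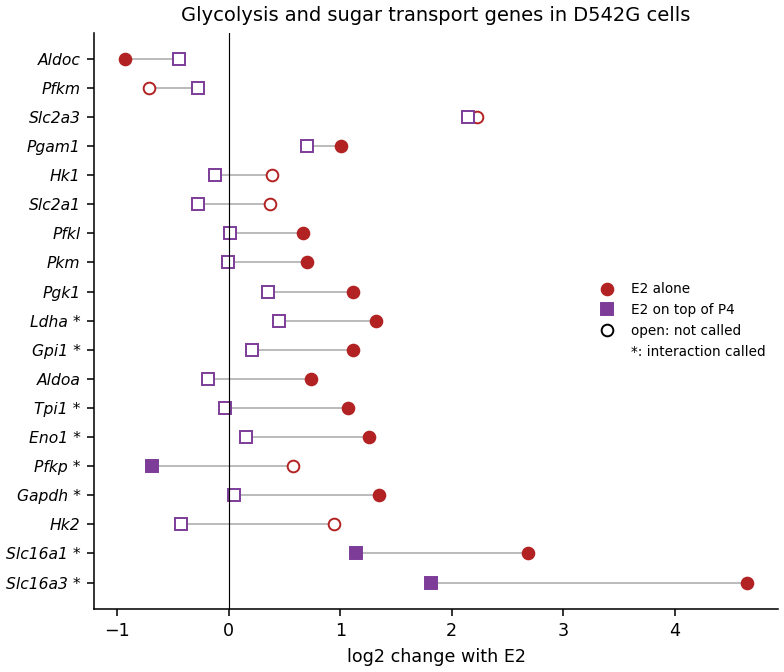
Log2 change with E2 alone (circles) and with E2 on top of P4 (squares) for the 19 glycolysis and sugar transport genes of D542G cells; filled symbols are called, and a star marks a called interaction. Squares lie left of the circles for 17 genes, and the 2 exceptions are Aldoc and Pfkm.

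Other gene groups had few calls. Of 26 type I interferon response genes, E2 alone raised 15 and lowered 1 (8.36% and 7.34% of all genes), with a median of 1.27. E2 on top of P4 raised 1 and lowered 1 (2.99% and 2.18%), with a median of 0.26. The median interaction was -1.11, with 2 of the 26 above 0. An unadjusted p under 0.05 was found for 12, against 3339 of all 18426 genes. Only Ifit3, an interferon-induced gene, was called by edgeR (-3.75 ± 0.88, adjusted p = 0.0130), against 2.15% of all genes called below 0. DESeq2 called 5 below 0 (806 over all genes). Ifit3 was at 0.886, 0.204 and 0.469 CPM in placebo, 8.82, 9.21 and 19.3 in E2, 2.59, 4.05 and 1.53 in P4, and 1.36, 9.51 and 3.58 in E2+P4. It was not called without placebo replicate 2 (adjusted p = 0.0505) or without both P4 replicate 2 and E2 replicate 3 (adjusted p = 0.109), nor with only the 12 D542G libraries (0.0803, and 0.123 with a replicate block). Leukocyte markers stood at 14.0 to 144 CPM in E2 against 10.1 to 11.4 in placebo, and their part in the interferon genes was not tested. Of 22 genes of the unfolded protein response, E2 alone raised 13 and lowered 1 (8.36% and 7.34% of all genes), with a median of 0.67. On top of P4, E2 raised 13 and lowered 0 (2.99% and 2.18%), with a median of 0.70. The interaction was called in 0 of them by edgeR and by DESeq2, with a median of 0.03. At an unadjusted p under 0.05 there were 3, against 3339 of all 18426 genes. The missing calls do not show that the responses were equal.

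Among 24 immediate early genes, 2 were called above 0 and 1 below (1.74% and 2.15% of all tested genes), with a median of 0.43. An unadjusted p under 0.05 was found for 8, against 3339 of all 18426 tested genes. Without both P4 replicate 2 and E2 replicate 3, or without P4 replicate 2 alone, 5 were called above; the median without both was 0.82. Dnajb1, a heat shock co-chaperone, was lowered by E2 alone, from 918, 1007 and 687 to 365, 393 and 385 CPM, and was at 526 to 596 CPM in P4 and at 575, 513 and 770.1 in E2+P4, an interaction of 1.35 ± 0.24 (adjusted p = 0.00116). Ier3, an early response gene that limits cell death, was at 184, 291 and 228 CPM in placebo, 824, 1109.96 and 959 in E2, 291, 305 and 231 in P4, and 279, 297 and 247 in E2+P4, an interaction of -2.05 ± 0.37 (adjusted p = 0.00106). The E2 libraries were the lowest for Dnajb1 and the highest for Ier3, without overlap. Hspa1a, also called above 0, has 75.0% of its span covered by other genes and kept its call in 5 of the 12 fits without a library, those without placebo replicate 1, E2 replicate 3, P4 replicate 2, or E2+P4 replicate 1 or 2 (adjusted p up to 0.105 otherwise). Of the 18 hormone-sensing luminal genes tested, 8 had an interaction above 0, and the median was -0.13. The luminal keratins Krt8 and Krt18 were among those called below 0 (2.15% of all tested genes), at -1.28 ± 0.29 (adjusted p = 0.0108) and -0.90 ± 0.26 (adjusted p = 0.0470). Krt8 was at 1077, 1572 and 1714 CPM in placebo, 2903, 3259 and 2568 in E2, 1504, 1143 and 1376 in P4, and 1139, 986 and 1198 in E2+P4. Krt8 was called in all 12 fits without a library and Krt18 in 1, that without P4 replicate 2. Krt18 was not called without both P4 replicate 2 and E2 replicate 3 (adjusted p = 0.0732) or with no filter on low counts (0.0641).

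By edgeR the interaction was called in 0 of 19 luminal progenitor and alveolar genes (median -0.30, 4 at an unadjusted p under 0.05), 0 of 20 S phase genes (median -0.03, 1 at that level), 0 of 24 G2 and M phase genes (median -0.56, 1 at that level) and 0 of 7 genes of MHC class II presentation (median -0.19, 2 at that level). Over all 18426 tested genes, 3339 were at that level. DESeq2 called 0 of the first 3 groups and 1 MHC class II gene, against 626 genes above and 806 below 0 over all genes. The medians of the 4 groups were 0.32, -0.31, -1.09 and 0.54 without both P4 replicate 2 and E2 replicate 3. P4 alone raised 10 of the progenitor and alveolar genes and lowered 1 (9.49% and 8.88% of all genes). Of 19 milk genes 1 was called (Lpin1, median 0.27), a share near the 3.89% of all tested genes. Of 23 cholesterol synthesis genes 2 were called (Dhcr7 and Sc5d above 0, against 1.74% of all genes; median 0.17), and 0 above 0 with only the 12 D542G libraries or without both P4 replicate 2 and E2 replicate 3. Sc5d was called in 6 of 12 fits without a library, and not without placebo replicate 2 or 3, E2 replicate 1, P4 replicate 2, or E2+P4 replicate 1 or 2 (adjusted p of 0.0553 to 0.085). Of the 23 cholesterol synthesis genes 9, and of the 19 milk genes 3, had an unadjusted p under 0.05. The median over the nuclear receptors and coregulators was -0.08. Dhcr7, the last enzyme of cholesterol synthesis, was lowered by E2 alone (-1.17 ± 0.35), with an interaction of 1.79 ± 0.49 (adjusted p = 0.0343) called in 5 of 12 fits; the call of Dhcr7 was lost without placebo replicate 1 or 3, E2 replicate 1 or 3, P4 replicate 2, or E2+P4 replicate 1 or 2.

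The same contrast in the other genotypes uses other libraries and can be set beside that of D542G cells. In WT cells the interaction was called in 2099 genes (11.4% of those tested), above 0 in 1178 (6.39%), and in Y541S cells in 104 (0.564%). Over all 18426 genes, the D542G interaction correlated with that of WT at r = 0.22 and with that of Y541S at r = 0.04, as a description across genes, which are not independent. Of the 716 genes called in D542G cells, 571 (79.7%) had the same sign in WT (60.7% of all tested genes) and 396 (55.3%) in Y541S (50.3% of all). The median size of the interaction over these 716 was 1.83 in D542G, where they were chosen, 0.97 in WT and 0.50 in Y541S. Called in both D542G and WT were 280 genes, of which 264 had the same sign.

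Tested directly, the interaction of D542G cells differed from that of WT cells in 254 genes (1.38%), 100 higher and 154 lower, and from that of Y541S cells in 271 (1.47%), 117 higher (0.635%) and 154 lower (0.836%). With library size as the only scaling, 62.0% of the differences from WT were higher against 39.4% with TMM factors, and the median over all genes was 0.20 against -0.03. Without both D542G P4 replicate 2 and E2 replicate 3, the differences were 146 higher and 197 lower for WT, and 123 and 171 for Y541S. Of the 716 genes called in D542G cells, 86 differed from WT and 179 from Y541S. Of the 254 differences from WT, 172 were in genes whose interaction was called in WT. Of the 271 from Y541S, 46 were in genes called in Y541S. The count of genes higher than in WT was 38 to 66 without WT placebo replicate 1 or 3, WT E2+P4 replicate 2 or 3, D542G placebo replicate 1 or 2, D542G P4 replicate 3 or D542G E2+P4 replicate 2, and 153 to 197 without WT E2 replicate 1 or WT E2+P4 replicate 1. The count of lower genes was 64 to 102 without any of the same 8 libraries, D542G E2 replicate 2, D542G P4 replicate 1 or D542G E2+P4 replicate 3, and 232 to 265 without WT E2 replicate 3 or WT E2+P4 replicate 1. For Y541S, the count of higher genes was 66 to 74 without D542G placebo replicate 1 or 2, Y541S E2 replicate 3, Y541S P4 replicate 1 or Y541S E2+P4 replicate 3, and without Y541S placebo replicate 5 the counts were 183 and 251.

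The receptors were among the differences from WT. The interaction of Esr1 was 3.64 ± 0.46 in WT and 0.65 ± 0.47 in D542G cells, a difference of -2.99 ± 0.66 (adjusted p = 0.0177). Mean Esr1 levels in WT were 688 ± 129.7 CPM in placebo, 24.3 ± 14.8 in E2, 537 ± 74.2 in P4 and 236 ± 106 in E2+P4 (SD, n = 3, and n = 4 for P4), against 171 ± 25.9, 87.6 ± 14.5, 105 ± 26.0 and 84.4 ± 18.6 in D542G (n = 3). The call for Esr1 was lost without WT E2+P4 replicate 3 (-2.61, adjusted p = 0.0574). The interaction of Pgr was 2.84 ± 0.50 in WT and -0.13 ± 0.51 in D542G cells, a difference of -2.96 ± 0.72 (adjusted p = 0.0326). It was lost in 12 of the fits without a WT or D542G library, at -2.98 to -2.44: without WT placebo 1, WT E2 2, WT P4 5, WT E2+P4 2 or 3, or D542G placebo 1 or 2, E2 1, P4 1 or 3, or E2+P4 2 or 3.

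For Atp2a3 the interaction was 1.92 ± 0.66 in WT and -5.79 ± 0.73 in D542G cells, a difference of -7.72 ± 0.98 (adjusted p = 0.000116). Gpx3, a secreted glutathione peroxidase, was at 2235, 2677 and 5013 CPM in D542G placebo, 38426, 41268 and 40768 in E2, 20461, 2997 and 6689 in P4, and 38219, 32948 and 30943 in E2+P4. In WT cells it had means of 1559.9 CPM in placebo, 11370.4 in E2, 1093 in P4 and 70245 in E2+P4. The interaction of Gpx3 was 3.14 ± 0.55 in WT and -1.84 ± 0.56 in D542G cells (adjusted p = 0.0624), a difference of -4.98 ± 0.79 (adjusted p = 0.00185). The D542G value of Gpx3 was -0.78 (adjusted p = 0.353) without P4 replicate 1, the highest P4 library. It was called without placebo replicate 3 (-2.27, adjusted p = 0.0291), P4 replicate 2 (-2.27, adjusted p = 0.00595) or P4 replicate 3 (-2.06, adjusted p = 0.0487), and by DESeq2 (-1.85, adjusted p = 0.0197). Its difference from WT was called in each of the fits without a D542G library. On the higher side, Traf2, an adaptor of TNF receptor signalling, was at 0.55 ± 0.18 in D542G (adjusted p = 0.0748, and 0.0374 by DESeq2) and -1.46 ± 0.17 in WT, a difference of 2.02 ± 0.25 (adjusted p = 0.000116). Fxyd6, a regulator of the sodium pump, was at 2.34 ± 0.42 in D542G and -1.58 ± 0.41 in WT, a difference of 3.92 ± 0.59 (adjusted p = 0.00154).

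Some genes with a strong interaction in D542G cells had it in WT as well. Net1 (3.37 ± 0.32 in WT, 0.43 ± 0.32 in Y541S) and Nmb (4.29 ± 0.54 in WT, -0.26 ± 0.56 in Y541S) gave values in WT near those of D542G, with differences of -0.17 ± 0.45 and 0.01 ± 0.78, and differed from Y541S by 2.76 ± 0.46 (adjusted p = 0.00136) and 4.56 ± 0.80 (adjusted p = 0.00210). Klk8 was below 0 in WT too (-3.03 ± 0.65), by less than in D542G cells (difference -3.87 ± 0.89, adjusted p = 0.0259; 0.0514 to 0.0593 without WT placebo replicate 3, WT E2+P4 replicate 3, D542G placebo replicate 1 or D542G E2+P4 replicate 2), and was at 2.17 ± 0.61 in Y541S, a difference of -9.07 ± 0.90 (adjusted p = 7.61e-07). Penk was at -4.76 ± 1.46 in WT and 3.45 ± 1.25 in Y541S, and its difference from Y541S was -13.41 ± 1.89 (adjusted p = 0.000289). The Y541S placebo means of Klk8 and Penk, 101 and 869 CPM, were already far above those of D542G placebo, 3.86 and 3.19 CPM. Bcl6 had interactions of opposite sign in the mutants, -2.02 ± 0.31 in D542G and 2.71 ± 0.31 in Y541S, a difference of -4.73 ± 0.43 (adjusted p = 2.17e-07).

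**Figure D5:**
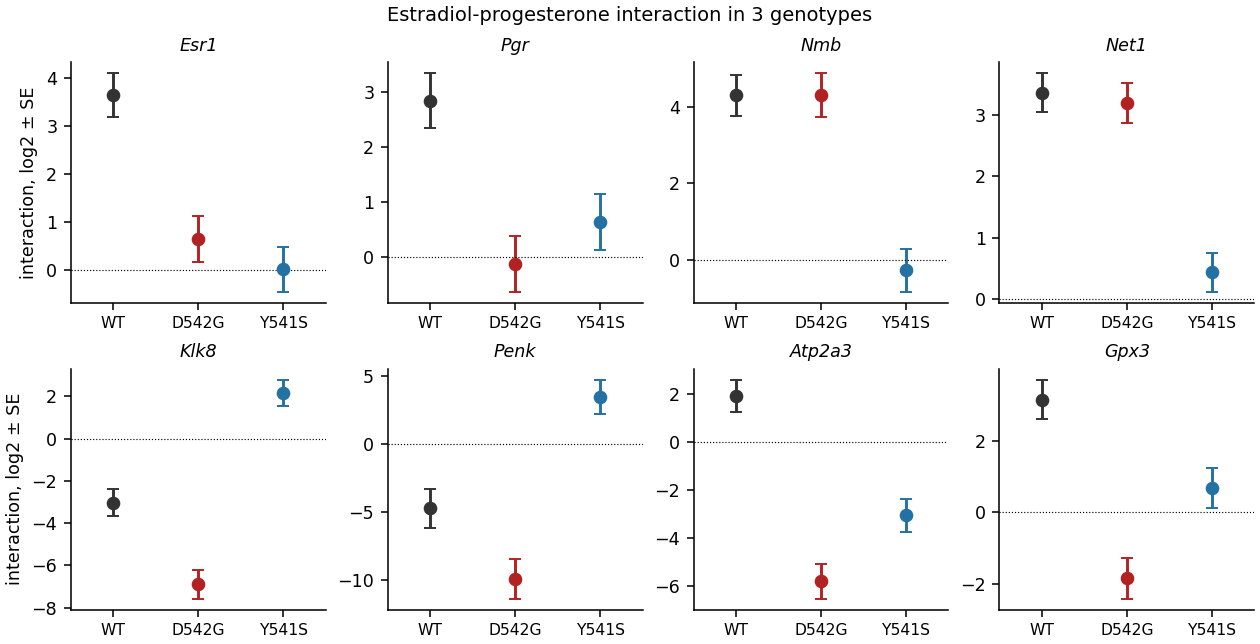
Interaction of E2 and P4 (log2, point ± SE) for 8 genes in WT, D542G and Y541S cells; the dotted line is 0. Esr1 and Pgr are well above 0 in WT only, Net1 and Nmb in WT and D542G, and Klk8 and Penk are below 0 in WT and D542G and above it in Y541S.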

How the data were processed

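Gene expression had been measured by RNA-seq (Nextera XT libraries) in FACS-sorted mammary mature luminal cells. The authors deposited, for each library, whole-number read counts per gene. The deposited RPKM values, which the authors made from the count and width columns per the file headers, were not used. GRCm38 was the genome per the submitters' processing notes. Which software aligned and counted the reads, and whether strand was used, is not given in the sources used here. Counts for 12 groups, 37 libraries in all, were fitted together with edgeR 4.0.16 (R 4.3.3), with TMM scaling, a filter on low counts by group and a quasi-likelihood test with 25 residual degrees of freedom. P-values were adjusted by Benjamini-Hochberg over all 18426 genes tested. The common biological coefficient of variation was 0.458. CPM values are library-size normalised by TMM (D542G factors 0.857 to 1.169). A prior count of 2 was used for log2 CPM only. The log2 changes are those of the edgeR fit, where this prior count was not set. Each SE is the size of the log2 change divided by the square root of its quasi-likelihood F statistic. It is thus not independent of the p-value beside it. On simulated data for the interaction (18005 genes tested), 27% of 100 genes with a 2-fold and 77% of 100 genes with a 4-fold change were recovered.

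Named genes were the 12 called genes with the largest interaction in each direction whose mean log2 CPM reached 2 (predicted and Rik genes left out), a panel of 20 hormone targets, up to 4 genes of smallest p per list, and up to 6 per direction for the differences from WT and Y541S; genes outside this rule are said to be chosen after their values were seen. The gene set, the 21 lists and the tests were chosen with earlier results of these data known. Promoters were RefSeq windows of GRCm38.p6, matched by symbol. Alternatives were RLE and library-size scaling, no filter, DESeq2 1.42.0, a replicate block, only the 12 D542G libraries, leaving out the 3 libraries with later sample identifiers (2 WT P4 and 1 Y541S placebo), each library left out, and, chosen after seeing the data, both D542G libraries that stood apart left out. One gene of the lists is not reported here.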

Additional observations from a re-analysis of the deposited data

Results flagged for a closer look

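The interaction of E2 and P4 in D542G cells differed from that in WT cells in 100 genes higher and 154 lower, and from that in Y541S cells in 117 higher and 154 lower, by edgeR's quasi-likelihood test of the difference itself with Benjamini-Hochberg adjustment.

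Against WT, the named genes with a lower interaction in D542G cells were Atp2a3 (-7.72), the sulfonylurea receptor gene Abcc8 (-6.02), Gpx3 (-4.98), the peroxisomal enzyme gene Phyh (-3.87), the glycosyltransferase gene Galnt7 (-2.58) and the translation inhibitor gene Eif4ebp1 (-1.71). Those with a higher one were the sialyltransferase gene St3gal5 (4.01), Fxyd6 (3.92), the growth factor gene Pdgfa (3.26), the aldehyde dehydrogenase gene Aldh2 (2.34), Traf2 (2.02) and the ephrin gene Efna1 (1.75). The D542G interaction itself was not called in the main fit for Abcc8, Gpx3, Galnt7, Eif4ebp1, Traf2 and Efna1. Of all 254 differences from WT, 86 were in genes called in D542G and 172 in genes called in WT. All 12 kept their call in those alternatives listed under the processing that include WT libraries.

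Against Y541S, the lower genes were Penk (-13.41), Klk8 (-9.07), the proteoglycan gene Srgn (-6.14), Bcl6 (-4.73), the arrestin-domain gene Arrdc3 (-3.77) and Morf4l2 (-1.78). The higher genes were the transcription factor gene Sox13 (3.78), Eef2k (2.87), Trim2 (2.53), the chemokine gene Cx3cl1 (1.95), the mitochondrial carrier gene Slc25a25 (1.89) and Poldip2 (1.30). These 12 likewise kept their call in the alternatives that include Y541S libraries.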

How the results depend on the processing

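Replicates of a D542G group differed by more than sampling noise (a chi-square of 48.2 to 280.5 for each degree of freedom). Some genes had few counts in a group, such as Tnfsf11, Ctsj and Mfap5. The effect of depth was not tested. With DESeq2 the interaction was called in 626 genes higher and 806 lower, E2 on top of P4 in 813 lower, the difference from WT in 289 higher and 404 lower, and that from Y541S in 265 and 451. With library size only, E2 on top of P4 was called in 644 lower, P4 alone in 3031 higher and 756 lower, P4 on top of E2 in 3108 and 1231, and the difference from WT in 173 higher. With no filter on low counts the difference from WT was called in 97 lower. Without the 3 libraries with later sample identifiers, the difference from Y541S was called in 242 lower. Without both D542G libraries that stood apart, the interaction was called in 204 higher, E2 on top of P4 in 254 higher and 249 lower, and P4 alone in 970 and 836.

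In deviations from the group mean, the 18 same-numbered pairs correlated at -0.15 to 0.27 (median 0.015), with 2 over 0.1. The 36 other pairs correlated at -0.24 to 0.19 (median 0.015), with 5 over 0.1. Between P4 and E2+P4, same-numbered pairs were at 0.19, 0.27 and 0.05, and other pairs at -0.24 to 0.12. With groups of 3 libraries, these values cannot decide whether replicate numbers pair the libraries. With a replicate block the interaction was called in 360 higher and 429 lower, and the differences of Esr1 (-2.73) and Pgr (-2.50) from WT lost their call. With only the 12 D542G libraries the interaction was called in 356 higher and 315 lower, and with the block as well in 265 and 237, so more genes were higher than lower; with both, P4 alone had 1077 higher.

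Leaving out 1 library at a time gave, higher and lower, 208 to 292 and 231 to 359 genes for the interaction, 923 to 1312 and 894 to 1184 for E2 alone, 238 to 547 and 196 to 422 for E2 on top of P4, 910 to 1747 and 813 to 1548 for P4 alone, 38 to 197 and 64 to 265 for the difference from WT, and 66 to 183 and 114 to 251 for that from Y541S. The interactions of Pgr (-0.42 to 0.05) and Cited1 (-0.49 to 0.15), not called, changed sign among these fits. The causes of these changes were not tested.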
